A study of Mus musculus with 8 samples.

Results

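Condensin, cohesin and the cohesin acetyltransferase Esco2 were followed in NS5 cells, a mouse neural stem cell line described in the labels as cells of E11.5 brain. The 9 genes were the condensin I subunits Smc2, Smc4, Ncapd2, Ncapg and Ncaph, the enzyme gene Esco2, and the cohesin core genes Smc1a, Smc3 and Rad21. They were found by symbol, as the 24 probe sets annotated with exactly 1 of these symbols, out of 45101 probe sets on the array and 18193 genes with a symbol of their own. The 6 condensin and Esco2 genes, with 16 probe sets, are called cycle-bound here, since their transcripts are known to be made mainly in dividing cells. The 3 cohesin core genes, with 8 probe sets, are known to be expressed through the cell cycle.

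Total RNA was hybridized to 8 Affymetrix arrays, 2 for each of 4 groups. All cells were first plated for 24 h with EGF and FGF2 and kept for 4 h without growth factors. They were then held for 48 h in TGF-beta1 with ethanol at 400 mg/dl (the group Ethanol and TGF-beta1), in FGF2 with the same ethanol (Ethanol and FGF2), in TGF-beta1 alone, or in FGF2 alone. Each growth factor is labelled as 10 ng/ul. All arrays are of 1 cell line, and nothing in the labels tells separate cultures from repeats of one culture, so p-values measure the spread between these samples, which may be technical.

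Both complexes are rings of a pair of SMC ATPases closed by a kleisin protein. Condensin folds chromosomes into compact rods for mitosis. Cohesin holds sister chromatids together from their replication until anaphase, and also forms chromatin loops in cells that are not dividing. Esco2 acetylates Smc3 during S phase, which locks cohesin onto the sister chromatids. Neural stem cells of the embryonic brain divide repeatedly, so transcripts of these genes are known from the germinal zones.

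Several arrays stood apart. The Fn1 signal, from the fibronectin gene that responds to TGF-beta1, was 3015 and 4109 in TGF-beta1 against 120 and 139 in FGF2. It was 124 and 8226 in Ethanol and TGF-beta1 (replicates 1 and 2) against 6828 and 116 in Ethanol and FGF2, so both ethanol arrays labelled replicate 1 went against their growth factor label. Each array was kept under its label, and without these 2 arrays limma called 0 genes of all in every ethanol comparison. The Gapdh transcript, which shows RNA breakdown as a high ratio of 3' to 5' signal, gave ratios of 1.93 and 2.06 for Ethanol and TGF-beta1, 3.33 and 3.48 for Ethanol and FGF2, 1.70 and 2.20 for TGF-beta1, and 1.64 and 2.20 for FGF2. Of the neural stem cell markers, 8 of 8 passed the signal filter, against 0 of 4 endothelial, 0 of 3 oligodendrocyte and 1 of 5 microglial markers on the array. Of 4 mesenchymal markers 3 passed (Acta2, Tagln and Col1a1), and their list summed to 177 to 1980 with ethanol and 372 to 1190 without, with the highest sum on Ethanol and TGF-beta1 replicate 2, where Acta2 had a signal of 751. Summed astrocyte marker signal ran from 15850 to 24619 with ethanol and from 9363 to 15347 without. Its 4 genes did not go 1 way in the ethanol average. Aqp4 and Gfap had log2 fold changes of 0.58 ± 0.24 and 1.87 ± 0.85, and S100b and Aldh1l1 had −0.14 each. The Gfap signal was 668 and 8284 in Ethanol and TGF-beta1 and 6058 and 1281 in Ethanol and FGF2. Summed neuronal marker signal, over 6 genes, ran from 8809 to 13621 with ethanol and from 5502 to 11329 without. Most of it was Map2, which alone ran from 7763 to 12179 with ethanol and from 5331 to 10231 without. Map2 and Elavl3 had log2 fold changes of 0.38 ± 0.20 and 0.57 ± 0.36 in the ethanol average. Rbfox3 and Stmn2 did not pass the signal filter. In the ethanol average no gene of these lists passed by limma, and no marker was listed at 0. The neuronal genes Tubb3 and Dcx had log2 fold changes of 1.60 ± 0.39 and 1.56 ± 0.36 there (unadjusted p = 0.00268 and 0.00209, adjusted p = 0.0938 and 0.0811 by limma), and every ethanol array was above every other one for Tubb3. Within TGF-beta1 Dcx rose, with 2.70 ± 0.52 (adjusted p = 0.0488 by limma), and within FGF2 it had 0.42 ± 0.52 (adjusted p = 0.861). The Dcx signal was 1013 and 413 in Ethanol and TGF-beta1 and 56.5 and 109 in TGF-beta1. In Ethanol and FGF2 it was 569 and 751, and in FGF2 314 and 742. Its highest value was on Ethanol and TGF-beta1 replicate 1, an array against its label. The part of these values in the results below was not tested. In bulk RNA, fewer dividing cells and less transcript per cell cannot be told apart.

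Sequence upstream of the RefSeq start (GRCm38.p6) was at hand for 6 of the 9 genes, namely Smc2, Ncapd2, Ncapg, Ncaph, Smc1a and Smc3. It is shown here for all 6, so that the 4 condensin genes, which moved together, can be read beside the 2 cohesin genes. Each window held 250 bases before and 50 bases after the start. It was searched on both strands for the cell cycle homology element of G2/M promoters (TTTGAA or TTCGAA), the CCAAT box (CCAAT) and an E2F site (TTTCCCGC, TTTCGCGC, TTTGCCGC or TTTGGCGC). No word of one motif overlaps a word of another in these windows. The 150 bases before each start follow, 5′ to 3′ in the gene's direction, with matches to any of these words in capitals. The intervals are chr5:45669775-45669924 (plus strand) for Ncapg, chr6:125191587-125191736 (minus strand) for Ncapd2, chr4:52439071-52439220 (plus strand) for Smc2, chr2:127133955-127134104 (minus strand) for Ncaph, chrX:152016278-152016427 (plus strand) for Smc1a and chr19:53600246-53600395 (plus strand) for Smc3. For Ncapg and Ncapd2 the start used here lies 34 and 514 bases inside the gene intervals given below, so 34 of the printed Ncapg bases and all 150 of the printed Ncapd2 bases are within those intervals. For the other 4 genes both starts are the same base.
Ncapg: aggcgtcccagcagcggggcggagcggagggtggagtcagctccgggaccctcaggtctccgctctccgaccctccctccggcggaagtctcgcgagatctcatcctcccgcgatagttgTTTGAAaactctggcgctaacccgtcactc
Ncapd2: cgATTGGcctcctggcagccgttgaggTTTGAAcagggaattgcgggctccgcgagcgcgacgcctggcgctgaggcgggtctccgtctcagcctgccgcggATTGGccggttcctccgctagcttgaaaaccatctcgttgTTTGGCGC
Smc2: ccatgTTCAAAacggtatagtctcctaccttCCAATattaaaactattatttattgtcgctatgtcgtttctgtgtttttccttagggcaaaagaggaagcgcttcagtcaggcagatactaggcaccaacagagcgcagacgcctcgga
Ncaph: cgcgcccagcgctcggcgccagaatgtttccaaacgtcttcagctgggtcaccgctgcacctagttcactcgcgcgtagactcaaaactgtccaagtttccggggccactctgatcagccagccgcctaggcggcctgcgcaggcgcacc
Smc1a: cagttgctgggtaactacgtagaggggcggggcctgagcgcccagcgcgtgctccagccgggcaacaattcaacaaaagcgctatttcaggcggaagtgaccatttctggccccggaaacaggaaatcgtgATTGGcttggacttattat
Smc3: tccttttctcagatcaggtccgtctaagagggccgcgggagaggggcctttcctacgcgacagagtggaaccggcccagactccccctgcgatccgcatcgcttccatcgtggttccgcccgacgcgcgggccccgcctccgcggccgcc

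The cell cycle homology word lay in 3 of the 4 cycle-bound windows (Ncapg, Ncapd2 and Smc2) and in 0 of the 2 cohesin windows, where 19.2% of all 32851 promoter windows hold one. In Ncapg it ran from base −30 to base −25, counted from the start of its window, and Smc2 held another after the start, from base 27 to base 32. A CCAAT box lay in 3 of the 4 cycle-bound windows and in that of Smc1a, where 37.4% of all windows hold one. An E2F word lay in the windows of Ncapd2, Ncapg and Smc1a, where 2.26% of all windows hold one. The Ncaph window held none of these words. A match is a description of letters, not a site in use.

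The first comparison asked what ethanol did as a mean of its effects in TGF-beta1 and in FGF2, over 4 ethanol arrays and 4 others. All 6 cycle-bound genes fell, by 2.74-fold to 12.3-fold, and 0 of the 3 cohesin core genes passed the test by limma (1 of the 3, Smc1a, at an unadjusted p under 0.05). Without both ethanol arrays labelled replicate 1 the count of 6 became 0, with all 6 below 0 and at an unadjusted p under 0.05. Over all 10916 genes tested, 1.8% fell past the same threshold of an adjusted p of 0.05 and 0.183% rose. The median log2 fold change was −2.32 over the cycle-bound genes and −0.30 over the cohesin core genes, beside 0.03 over all genes tested. These fold changes are on the scale of log2(signal + 23.66), which understates the change of dim genes.

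**Figure D1:**
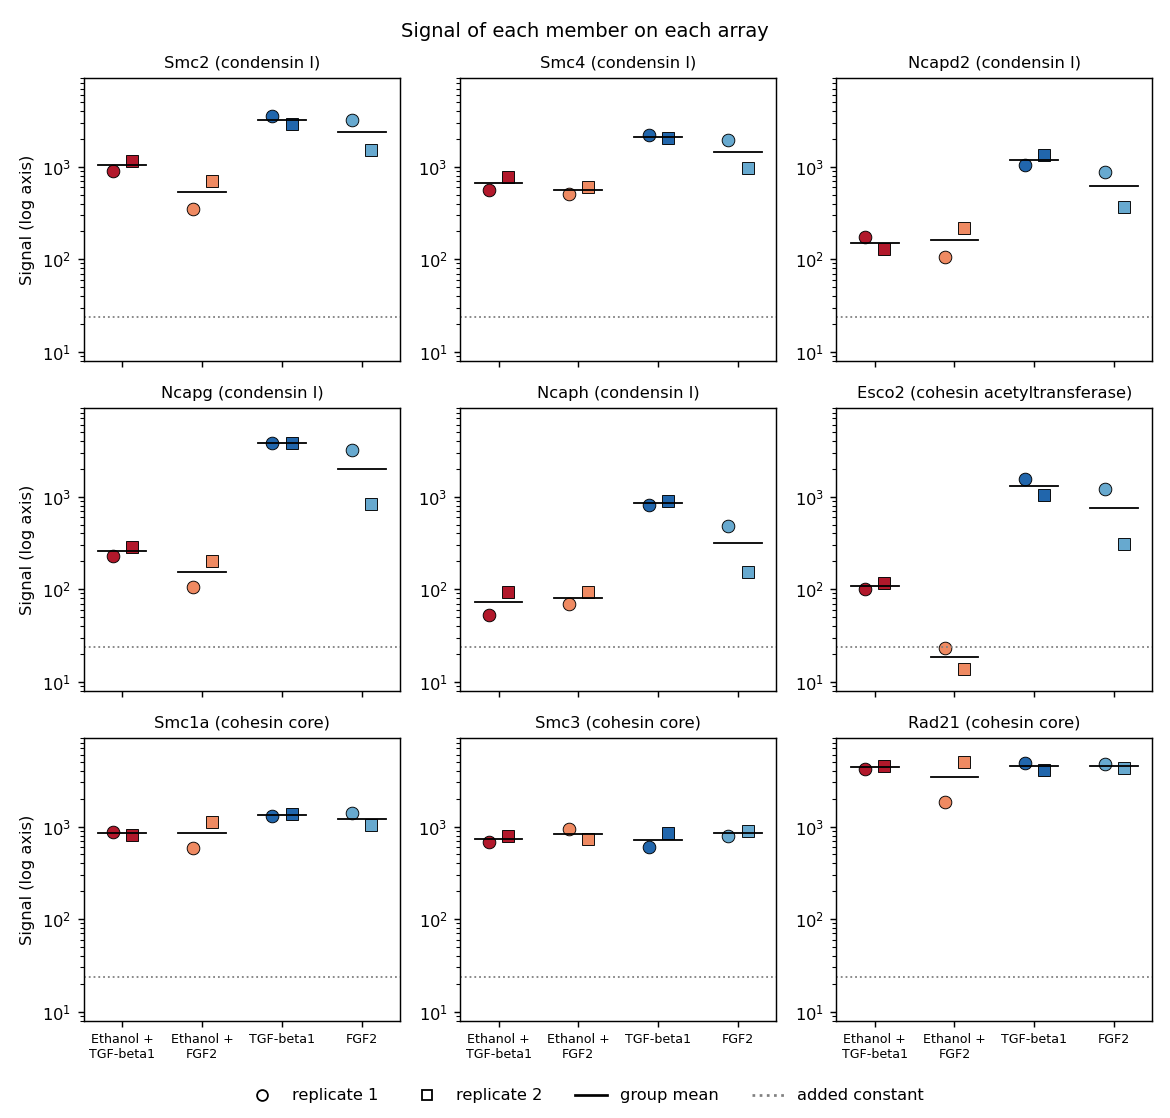
Signal of each of the 9 genes on each array (linear signal on a log axis; circles replicate 1, squares replicate 2, bars group means of 2 arrays). The 4 ethanol arrays lie below the 4 others for the condensin I genes and Esco2, and the groups overlap for Smc1a, Smc3 and Rad21.

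Among the condensin subunits, Ncapg (a HEAT-repeat subunit that helps condensin hold DNA, on chromosome 5 from 45669891 to 45700547, GRCm38.p6) fell furthest of the subunits. Its signal was 229 and 285 in Ethanol and TGF-beta1, 106 and 200 in Ethanol and FGF2, 3762 and 3801 in TGF-beta1, and 3183 and 831 in FGF2. The 4 ethanol arrays were all below the 4 others, and the array labelled FGF2 replicate 2 was the lowest of those without ethanol. The log2 fold change was −3.53 ± 0.38 (SE, adjusted p = 0.00258 by limma).

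Ncaph, the kleisin that closes the condensin I ring (chromosome 2, 127103809 to 127133954), had signals of 52.3 and 93.1 in Ethanol and TGF-beta1, 68.9 and 92.4 in Ethanol and FGF2, 808 and 900 in TGF-beta1, and 478 and 152 in FGF2. The ethanol arrays again lay below all others, with FGF2 replicate 2 nearest to them. Its log2 fold change was −2.37 ± 0.35 (adjusted p = 0.00826 by limma). Ncapd2, the other HEAT-repeat subunit (chromosome 6, 125168007 to 125192100), had signals of 173 and 128 in Ethanol and TGF-beta1, 105 and 219 in Ethanol and FGF2, 1033 and 1349 in TGF-beta1, and 875 and 365 in FGF2. Its groups with and without ethanol did not overlap. The log2 fold change was −2.27 ± 0.32 (adjusted p = 0.00712 by limma).

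The ATPase pair of condensin changed less than its other subunits in size in the average. Within FGF2 alone Smc2 had a larger log2 fold change (−2.11) than Ncapd2 (−1.74) and Ncaph (−1.52). The Smc2 signal (chromosome 4, 52439221 to 52488365) was 897 and 1166 in Ethanol and TGF-beta1, 350 and 706 in Ethanol and FGF2, 3519 and 2883 in TGF-beta1, and 3226 and 1528 in FGF2. Smc4 (chromosome 3, 69004738 to 69034623) gave 558 and 783 in Ethanol and TGF-beta1, 511 and 608 in Ethanol and FGF2, 2180 and 2056 in TGF-beta1, and 1942 and 962 in FGF2. Neither gene overlapped between ethanol and no ethanol. The log2 fold changes were −1.86 ± 0.29 for Smc2 and −1.45 ± 0.24 for Smc4 (adjusted p = 0.012 and 0.0154 by limma), and whether they differ from those of the other subunits was not tested.

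Esco2 (chromosome 14, 65819027 to 65833969) fell about as far as Ncapg in the average, and which of them fell further changed with the constant and with the arrays used. Its signal was 99.2 and 115 in Ethanol and TGF-beta1, 23.2 and 13.6 in Ethanol and FGF2, 1551 and 1039 in TGF-beta1, and 1215 and 304 in FGF2. The ethanol arrays lay below all others, and both arrays labelled Ethanol and FGF2 lay under the constant of 23.66 that was added before logs, which limits the fold that can be read. On that scale the log2 fold change was −3.62 ± 0.39 (adjusted p = 0.00258 by limma). Esco2 split the ethanol arrays by their labels, unlike Fn1 and Pmepa1. A comparison of growth factors within ethanol, added after these values were seen, gave a log2 fold change of 1.64 ± 0.56 for TGF-beta1 over FGF2. It did not pass the test (unadjusted p = 0.0161, adjusted p = 0.983 by limma), where 0% of all genes did and 288 had an unadjusted p under 0.05. The Gapdh ratio differed between the same pairs of arrays, and its part was not tested.

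The cohesin core genes had smaller changes and did not move as a set. Smc3, the ATPase that Esco2 acetylates (chromosome 19, 53600396 to 53645831), had signals of 678 and 798 in Ethanol and TGF-beta1, 946 and 729 in Ethanol and FGF2, 605 and 843 in TGF-beta1, and 794 and 898 in FGF2. The groups overlapped throughout. Its log2 fold change was 0.01 ± 0.19, with a 95% interval from −0.42 to 0.43 (adjusted p = 0.994 by limma).

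Rad21, the kleisin that separase cuts at anaphase (chromosome 15, 51962604 to 51993538), had signals of 4224 and 4490 in Ethanol and TGF-beta1, 1827 and 4984 in Ethanol and FGF2, 4894 and 4054 in TGF-beta1, and 4720 and 4328 in FGF2. The array labelled Ethanol and FGF2 replicate 1, 1 of the 2 that went against their labels, stood alone below the others. The log2 fold change was −0.30 ± 0.28, with a 95% interval from −0.94 to 0.33 (adjusted p = 0.792 by limma), and 0.05 without that array (adjusted p = 0.913).

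Smc1a, the ATPase partner of Smc3 (X chromosome, 152016428 to 152061973), had signals of 870 and 821 in Ethanol and TGF-beta1, 592 and 1113 in Ethanol and FGF2, 1316 and 1376 in TGF-beta1, and 1395 and 1051 in FGF2. Ethanol and FGF2 replicate 2 lay above FGF2 replicate 2, so the groups overlapped by 1 array on each side. The log2 fold change of −0.61 ± 0.22 had a 95% interval from −1.11 to −0.11 before adjustment and did not pass the test (adjusted p = 0.331 by limma).

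**Figure D2:**
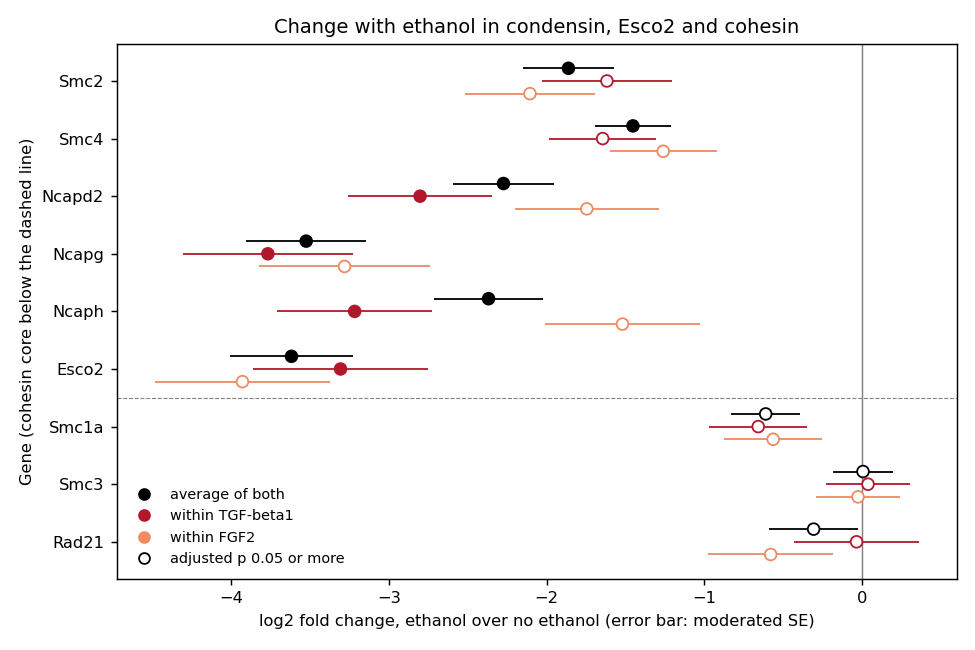
Log2 fold change of each gene with ethanol over without (error bars, moderated SE; filled points have a limma adjusted p under 0.05). In the average the 6 genes above the dashed line lie between −3.62 and −1.45, and the 3 cohesin core genes between −0.61 and 0.01.

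All 4 ethanol arrays lay below all 4 others for 6 of the 9 genes, which were the cycle-bound ones, against 4.45% of all genes tested. For each of these 6 genes such a separation by itself gives p = 0.0286 in the exact permutation test over 4 against 4 arrays (two-sided). This is the smallest value that this design allows, so it restates the separation and adds no further support. The same test gave exact p values of 0.0571 for Smc1a, 0.971 for Smc3 and 0.6 for Rad21. A model with 2 groups of 4 arrays and no growth factor term, whose result does not depend on which growth factor an ethanol array is labelled with, also called the 6 cycle-bound genes lower, with adjusted p from 0.00326 to 0.0203 by limma, and 0 of the cohesin core genes (adjusted p from 0.232 to 0.993). Over all genes 2.02% fell in that model. Without both ethanol arrays labelled replicate 1, the 2-group model called 0 of the 9 genes and 0% of all genes (the 6 cycle-bound genes at an unadjusted p under 0.05, and 1131 genes in all), and the 2 ethanol arrays left lay below the 4 others for the same 6 genes, as for 10.2% of all genes.

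Leaving out arrays changed the number of calls but not the direction of the 6 cycle-bound genes. Without both ethanol arrays labelled replicate 1, limma called 0 of the 9 genes and 0% of all genes, with 1141 of all genes at an unadjusted p under 0.05, adjusted p from 0.078 to 0.198 for the cycle-bound genes and their median log2 fold change at −2.13. Without TGF-beta1 replicate 1, 3 stayed called (Ncapd2, Ncapg and Esco2). Smc2 and Smc4 also lost their calls without Ethanol and TGF-beta1 replicate 1, and Smc4 without Ethanol and FGF2 replicate 1 or TGF-beta1 replicate 2. Ncapd2, Ncapg and Esco2 kept theirs with each of the 8 arrays left out in turn.

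The condensin subunits and their cohesin counterparts were then compared directly, as the difference of their log2 levels on each array. For Smc2 minus Smc3, the ethanol arrays gave 0.39 and 0.53 in Ethanol and TGF-beta1 and −1.38 and −0.05 in Ethanol and FGF2, against 2.49 and 1.75 in TGF-beta1 and 1.99 and 0.75 in FGF2. Every ethanol array lay below every other one. The mean was lower by 1.87 log2 units with ethanol (exact permutation test, two-sided, p = 0.0286).

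For the kleisins, Ncaph minus Rad21 averaged −5.21 ± 0.63 with ethanol and −3.14 ± 1.09 without (SD, n = 4 each), a difference of −2.06 (exact permutation p = 0.0571). FGF2 replicate 2, at −4.63, lay below Ethanol and FGF2 replicate 1, at −4.32, and the groups overlapped there. Smc4 minus Smc1a averaged −0.43 ± 0.36 with ethanol and 0.41 ± 0.37 without (SD, n = 4 each), a difference of −0.84 (exact permutation p = 0.0571). Here FGF2 replicate 2, at −0.13, lay below Ethanol and TGF-beta1 replicate 2, at −0.07, and the groups overlapped there. Adjusted over the 3 pairs by the Benjamini-Hochberg method, each exact permutation p was 0.0571. With single arrays left out in turn, the exact permutation p ran from 0.0286 to 0.0857 for Ncaph minus Rad21 and for Smc4 minus Smc1a, with 0.0286 only without FGF2 replicate 2. For Smc2 minus Smc3 it was 0.0571 without any 1 of the 4 ethanol arrays and 0.0286 without any 1 of the others.

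**Figure D3:**
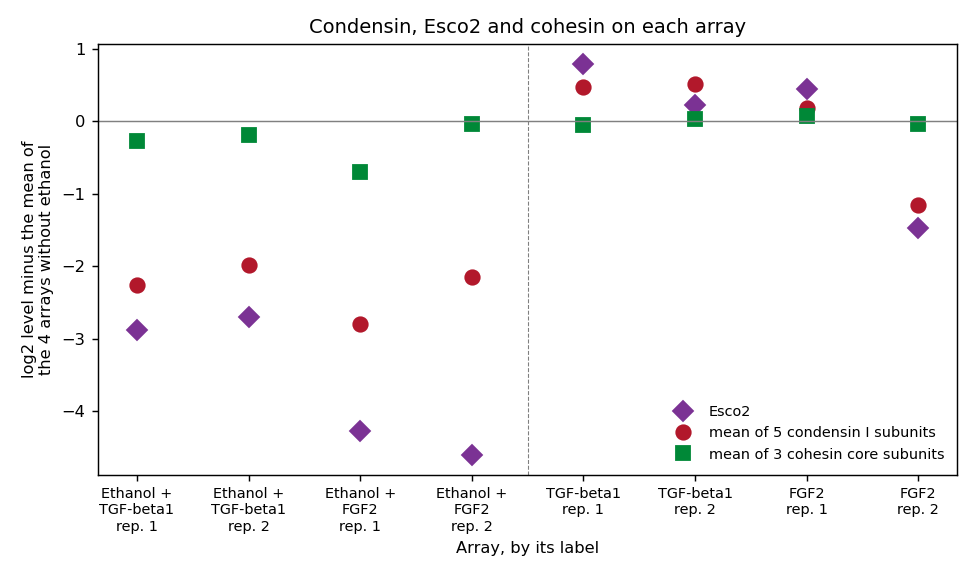
Mean log2 level of the condensin I subunits (circles), Esco2 (diamonds) and the cohesin core subunits (squares) on each array, minus the mean of the 4 arrays without ethanol. Condensin lies between −2.80 and −1.98 on the ethanol arrays and cohesin between −0.70 and −0.04, and FGF2 replicate 2 lies below the other arrays without ethanol for condensin and Esco2.

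The array labelled FGF2 replicate 2 stood between the groups for the cycle-bound genes. Relative to the mean without ethanol, in log2 units, its condensin mean lay at −1.16, its Esco2 level at −1.47 and its cohesin mean at −0.04. The proliferation markers Mki67 and Top2a had signals of 1123 and 2200 on it, against 1866 and 4176 on FGF2 replicate 1, and the Dcx signal, from a gene of young neurons, was 742 against 314. The highest condensin mean on an ethanol array was 8.45, in Ethanol and TGF-beta1 replicate 2, where FGF2 replicate 2 had 9.27 and the other arrays without ethanol had 10.6 to 10.9 (log2 of signal plus constant).

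Other probe sets of the same genes were examined, since an array reads each gene at several places. In a fit over 20967 probe sets, 10 of the 16 cycle-bound probe sets were called lower and 0 of the 8 cohesin probe sets, where 1.27% of all probe sets were. For Ncaph 2 of 2 were called, for Smc2 3 of 5, for Smc4 2 of 3, and for Ncapd2, Ncapg and Esco2 1 of 2 each. Without both ethanol arrays labelled replicate 1, 0 of the 24 and 0% of all probe sets were called (12 of the 16 cycle-bound ones at an unadjusted p under 0.05). The exceptions in direction were a pair of Smc2 probe sets. The Smc2 probe set 1458479 gave 155 and 255 in Ethanol and TGF-beta1, 129 and 199 in Ethanol and FGF2, 96.7 and 199.7 in TGF-beta1, and 49.7 and 188 in FGF2, with a log2 fold change of 0.51 ± 0.38 (adjusted p = 0.722 by limma). The Smc2 probe set 1429659 had 0.06 ± 0.31 (adjusted p = 0.969). The second Ncapd2 probe set, with signals from 28.7 to 139, had −0.57 ± 0.34 and the second Ncapg probe set −2.19 ± 0.50 (adjusted p = 0.61 and 0.0772). The second Esco2 probe set, with signals from 6.05 to 263, had −1.68 ± 0.44 (adjusted p = 0.131 by limma), a smaller change than on the probe set used. When all probe sets of a gene were averaged, Smc2 was no longer called (log2 fold change −0.83, adjusted p = 0.0633) and the other 5 cycle-bound genes were.

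The 3 Rad21 probe sets had log2 fold changes of −0.30, −0.38 and −0.44. On the second of them the array labelled Ethanol and FGF2 replicate 1 was again low, at 1618 against 3193 to 5018 on the other 7 arrays. On the third, both Ethanol and FGF2 arrays were the lowest, at 171 and 186, with 263 and 234 in Ethanol and TGF-beta1. Without ethanol it gave 325 and 360 in TGF-beta1 and 299 and 211 in FGF2 (unadjusted p = 0.07, adjusted p = 0.518 by limma). Of the Smc3 probe sets, the dimmer had −0.35 ± 0.25 and the brighter 0.01 ± 0.19, so their signs differed. The 3 Smc1a probe sets had −0.61, −0.26 and −0.14.

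**Figure D4:**
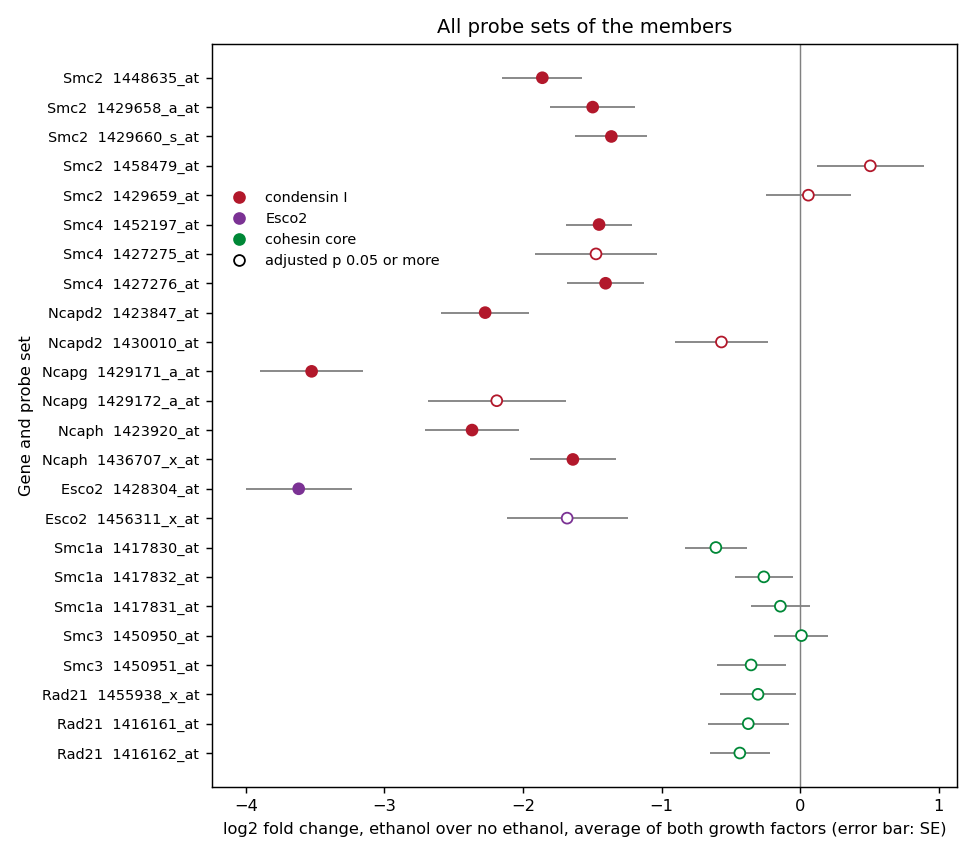
Log2 fold change with ethanol, averaged over both growth factors, for the 24 probe sets of the 9 genes (error bars, moderated SE; filled points have a limma adjusted p under 0.05 in the fit over all probe sets). Filled points are 10 condensin and Esco2 probe sets, and 0 of the 8 cohesin probe sets.

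The growth factors were next taken apart. Within TGF-beta1 (2 against 2 arrays, 1 of them against its label), 4 of the 9 genes fell, where 1.12% of all genes fell and 0.0733% rose. They were Ncapg (−3.77 ± 0.54), Esco2 (−3.31 ± 0.56), Ncaph (−3.22 ± 0.49) and Ncapd2 (−2.80 ± 0.46), with adjusted p from 0.0218 to 0.029 by limma. Smc4 and Smc2 had −1.64 ± 0.34 and −1.62 ± 0.41, not past the test (adjusted p = 0.0646 and 0.151). The cohesin core genes ran from −0.66 to 0.04. This count rested on single arrays. It dropped to 0 with any of 3 arrays left out (Ethanol and TGF-beta1 replicate 1, TGF-beta1 replicate 1 or TGF-beta1 replicate 2), to 0 without both ethanol arrays labelled replicate 1, and to 1 (Ncaph) with replicate 2 of Ethanol and TGF-beta1 left out, each time with the cycle-bound median between −3.01 and −2.88.

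Within FGF2 (2 against 2 arrays, 1 of them against its label), 0 of the 9 genes and 0% of all genes passed by limma, with 6 of the 9 and 906 genes in all at an unadjusted p under 0.05. The log2 fold changes were −3.93 ± 0.56 for Esco2, −3.28 ± 0.54 for Ncapg (adjusted p = 0.0601 each), −2.11 ± 0.41 for Smc2, −1.74 ± 0.46 for Ncapd2, −1.52 ± 0.49 for Ncaph and −1.26 ± 0.34 for Smc4. Smc1a, Smc3 and Rad21 had −0.56, −0.02 and −0.58. The median of these 3 was −0.56 with all arrays, −1.004 without Ethanol and FGF2 replicate 2 and −0.12 without Ethanol and FGF2 replicate 1. The cycle-bound median was −1.92 with all arrays, −2.49 without FGF2 replicate 2 and −1.36 without FGF2 replicate 1. The test of the difference between the growth factors called 0 of the 9 genes and 0% of all genes (484 genes at an unadjusted p under 0.05), with adjusted p from 0.831 to 0.982 for the 9. The size of this difference was −1.70 ± 0.69 for Ncaph and −1.06 ± 0.64 for Ncapd2, and it was between −0.49 and 0.62 for the other 7 genes. Its median over the cycle-bound genes was −0.44 with all arrays, 0.29 without FGF2 replicate 2 and −1.16 without FGF2 replicate 1, so 1 array turned its direction.

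TGF-beta1 was set against FGF2 without ethanol last. None of the 9 genes and 0% of all genes passed by limma (542 genes at an unadjusted p under 0.05, Ncaph among them). The 6 cycle-bound genes had log2 fold changes from 0.52 to 1.56, and the 3 cohesin core genes from −0.23 to 0.15, at adjusted p from 0.98 to 0.998. These values rested on FGF2 replicate 2. The cycle-bound median was 1.02 with all arrays, 0.18 without FGF2 replicate 2 and 1.81 without FGF2 replicate 1. This comparison shares its arrays with both ethanol comparisons above.

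Other genes of cohesion and condensation were read from a hand-written list of 34, of which 33 were on the array and 31 passed the signal filter. In the ethanol average 8 fell and 0 rose, beside 1.8% and 0.183% of all genes, and the median of the 31 was −0.26. Without both ethanol arrays labelled replicate 1 the count of 8 became 0, with 9 of the 31 at an unadjusted p under 0.05. Of the genes that protect cohesion or release it at anaphase, 4 of 5 fell. Pttg1 (securin, the inhibitor of separase) had signals of 339 and 939 in Ethanol and TGF-beta1, 711 and 351 in Ethanol and FGF2, 7979 and 9963 in TGF-beta1, and 6153 and 2432 in FGF2, with a log2 fold change of −3.41 ± 0.39 (adjusted p = 0.00269 by limma). Sgo1 and Sgo2a, the shugoshins that guard centromeric cohesin, had −2.99 ± 0.38 and −2.91 ± 0.39, and Cdca5 (sororin, which acts after Esco2 to keep cohesin on chromatids) had −2.22 ± 0.31, all 3 past the test. Espl1, the gene of separase, had −1.70 ± 0.50 and did not pass (adjusted p = 0.183), with signals of 8.83 to 59.9 with ethanol and 18.3 to 324 without.

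None of the 10 genes that load, position or release cohesin passed by limma, and 0 of them had an unadjusted p under 0.05. Their log2 fold changes ran from −0.28 to 0.36 with a median of 0.05, with −0.28 ± 0.16 for Stag1 (a subunit bound to the ring), 0.06 ± 0.16 for Nipbl (the loader) and 0.05 ± 0.21 for Wapl (the release factor). Esco1, an acetyltransferase not limited to S phase, had 0.31 ± 0.27 (adjusted p = 0.772), where its relative Esco2 had −3.62 ± 0.39. The difference between Esco1 and Esco2 was not tested.

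Condensin II, unlike condensin I, stays in the nucleus through interphase. Of the 3 listed genes particular to it, Ncapg2 fell (−2.23 ± 0.26, adjusted p = 0.00269 by limma). Ncapd3 and Ncaph2 had −0.26 ± 0.19 and −0.64 ± 0.26, not past the test. The genes of the Smc5/6 complex, which acts in DNA repair, had 0 of 6 called and log2 fold changes from −0.76 to 0.39. Smc6 was the lowest at −0.76 ± 0.18 (adjusted p = 0.0789), with the 4 ethanol arrays below the 4 others. Among chromosome scaffold genes Top2a (topoisomerase of dividing cells, −3.01 ± 0.30), Mki67 (−2.67 ± 0.26) and the chromokinesin gene Kif4 (−2.42 ± 0.40) fell. Of the 2 Top2a probe sets that passed the filter 1 went the other way. Top2b, a related topoisomerase, had 0.03 ± 0.15 (adjusted p = 0.969). Of the meiotic cohesin genes on the array only Stag3 passed the signal filter (−0.80 ± 0.28, adjusted p = 0.314), and Smc1b and Rec8 did not. Within TGF-beta1 7 of the 31 fell, which were the same genes except Kif4, beside 1.12% of all genes. This count of 7 became 0 without Ethanol and TGF-beta1 replicate 1, without either TGF-beta1 array, without both ethanol arrays labelled replicate 1, and with the replicate number as a block. Within FGF2 0 of the 31 and 0% of all genes passed by limma, with 10 of the 31 at an unadjusted p under 0.05.

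**Figure D5:**
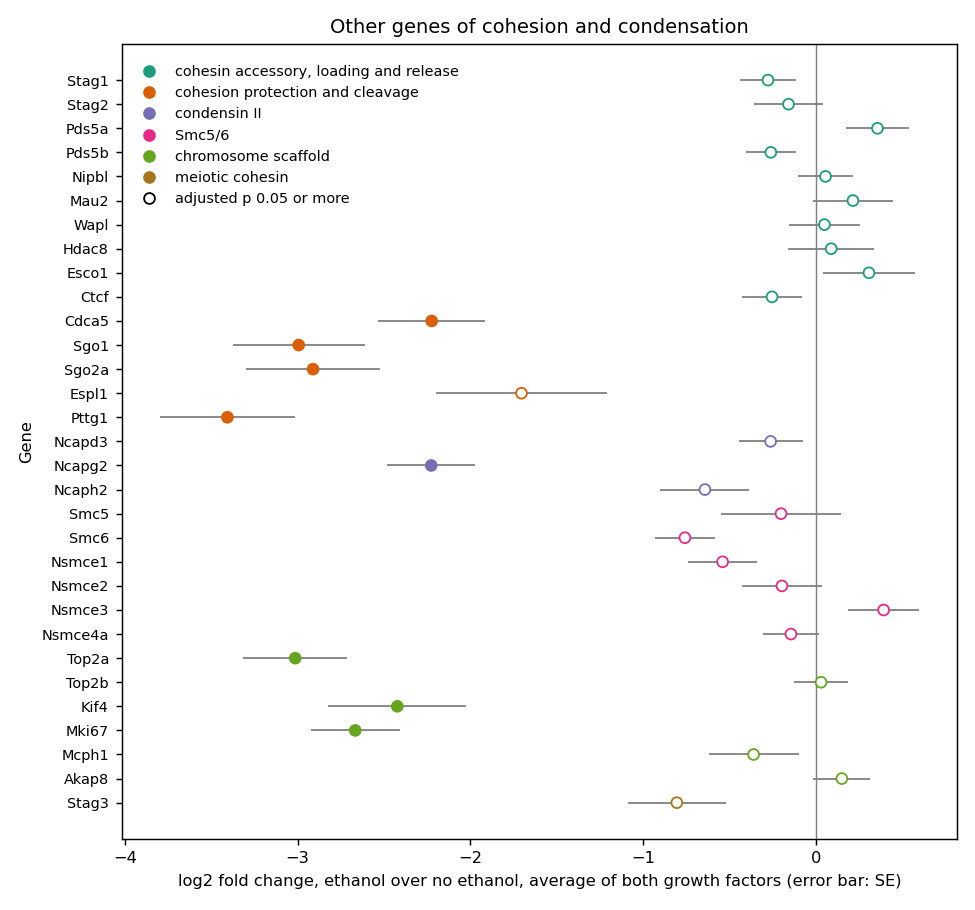
Log2 fold change with ethanol, averaged over both growth factors, for the 31 tested genes of the wider list by role (error bars, moderated SE; filled points have a limma adjusted p under 0.05). Filled points are 4 cohesion protection and cleavage genes, Ncapg2, Top2a, Kif4 and Mki67, and 0 of the 10 cohesin loading and accessory genes.

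Genes most like each complex over the 8 arrays were taken from the 10907 other genes tested, by Pearson's r of the log2 level. For condensin and Esco2 the arrays fall into those with and without ethanol, so r describes that split first. For the condensin mean they were Kifc1 (a spindle kinesin, r = 0.996), Cenpn (a centromere protein), Myb, Pimreg and Ska1 (r = 0.993). For Esco2 they were Prr11 (r = 0.997), Cdca2, Nsl1, Trim59 and Kif11 (r = 0.986). Each of these 10 genes fell in the ethanol average, with log2 fold changes from −3.78 to −1.97. For the cohesin mean they were Atxn3 (r = 0.99), Pxmp4, Acad9, Hdac2 and Dnmt3b (r = 0.953), none of which passed the test (log2 fold changes from −0.57 to −0.17). The cohesin mean did not split by ethanol. It was 10.0 on Ethanol and FGF2 replicate 1, an array against its label, and 10.4 to 10.8 on the others. The weight of that array in r was not tested. Between the 3 cohesin core genes r ran from −0.61 to 0.76, so their mean does not describe a set that moved together. With the 6 cycle-bound genes, Smc1a had r from 0.77 (Esco2) to 0.91 (Ncapd2), Rad21 from 0.35 to 0.65 and Smc3 from −0.37 to −0.22. Between the cycle-bound genes themselves r ran from 0.89 to 0.99, so Smc1a varied much as they did.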

How the data were processed

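Per the submitters' processing notes the arrays were processed with MAS5 and GCOS, whose versions are not given in the sources used here. In the authors' deposited table each value is a linear signal intensity, with no logarithm taken. Its 2% trimmed mean was 500 on each array and its median ran from 50.6 to 86.5. Without ethanol the median went by replicate number. It was 50.6 in TGF-beta1 and 50.7 in FGF2 for replicate 1, and 80.7 and 86.5 for replicate 2. Probe sets were named from the platform annotation: 34945 had 1 symbol, 932 several, 9160 none, and 64 were controls. Positions came from RefSeq (GRCm38.p6) for all 9 genes. For each gene the probe set of highest mean log2 value was used.

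The 25th percentile of all signals, 23.66, was added before log2 was taken, and the dimmest 40% of genes by mean log2 value were left out. All 9 genes and 24 probe sets passed. Limma 3.58.1 (R 4.3.3) fitted 4 group means with a trend (4 residual and 4.93 prior degrees of freedom), with Benjamini-Hochberg adjustment over 10916 genes. The number of arrays limits the precision.

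The members, classes and lists were chosen with earlier results of these data known. Named were all members, every list gene past the threshold with up to 3 others per subgroup, and the 5 genes most alike. Replicate numbers were not taken as pairs, since no label says what they mean. Deviations of same-numbered arrays correlated from −0.44 to 0.47 between groups, which does not settle it. The −0.44 was between the ethanol groups, each with 1 array against its label, and the 0.47 between the groups without ethanol. Counts for the wider list, probe sets and 2-group model without arrays were added after seeing the data.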

Additional observations from a re-analysis of the deposited data

How the results depend on the processing

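The number of the 9 genes called in the ethanol average, 6 with all arrays, stayed between 4 and 6 under other constants (1 and 100), filters, probe choices, quantile normalization, no trend, the replicate block, the 2-group and additive models. It was 0 without both ethanol arrays labelled replicate 1, and 3 to 6 with single arrays left out. Within TGF-beta1 the count of 4 became 2 under the stricter filter (60th percentile, which 7 of the 9 pass), 1 with the mean of all probe sets, 0 with the replicate block, 0 without both of those arrays, and 0 to 5 with single arrays left out. Within FGF2 the count of 0 became 2 with no filter, 2 with quantile normalization (Ncapg and Esco2 each time), and 0 to 3 with single arrays left out. The interaction and the growth factors without ethanol had a count of 0 under all 18 alternatives each. No label says what a shared replicate number means. Deviations of same-numbered arrays correlated at 0.47 between TGF-beta1 and FGF2, at −0.44 between the ethanol groups and from −0.13 to 0.05 otherwise. The block changed no count of the 9 genes other than that within TGF-beta1.

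For Smc2 minus Smc3 the exact permutation p was 0.0556 with the replicate block (difference −1.87) and 0.0667 without both ethanol arrays labelled replicate 1 (−1.50), the smallest p each allows, and the difference was −0.66 with the mean of all probe sets and ran from −2.20 to −1.45 with single arrays left out. It ran from −1.02 to −0.70 for Smc4 minus Smc1a and from −2.56 to −1.73 for Ncaph minus Rad21. The fold change of Smc3, near 0, turned negative with the mean of all probe sets (−0.17), without both ethanol arrays labelled replicate 1 (−0.03), and without single arrays (from −0.11 to 0.12). That of Rad21 turned positive without both of those arrays (0.076) and without Ethanol and FGF2 replicate 1 (0.05), and ran from −0.66 to 0.05 with single arrays left out. The fold changes of Ncapg and Esco2 were −3.13 and −2.68 with a constant of 100, and −3.68 and −4.29 with a constant of 1. The causes were not tested.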
